A study of Mus musculus with 6 samples.

Results

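The transcripts described here are those of 9 genes that mature oligodendrocytes use to build and hold myelin: Mbp, Mog, Mag, Mobp, Cnp, Cldn11, Mal, Ermn and Opalin. They were taken by symbol from gene counts of the hippocampus that list 25239 genes, and all 9 were found and passed the filter on low counts, as did 14445 genes in all. The RNA came from male C57BL/6 mice, aged 6 to 8 weeks per the study's methods, and was sequenced in 1 library per mouse. WT mice (Ube3a m+/p+, n = 3) were compared with Ube3a m-/p+ mice (n = 3), a model of Angelman syndrome in which the maternal copy of Ube3a does not work while the paternal copy is kept. Ube3a encodes a ubiquitin ligase, and neurons silence its paternal copy whereas most glia do not. The design of the mutant allele is not given in the sources used here, and the tissue was taken whole, with every cell type in it.

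Oligodendrocytes wrap axons in compacted sheets of their own membrane, which insulate the axon and speed conduction. The sheets are held together on the inside by basic proteins such as MBP and MOBP, sealed by claudin-11, and kept in contact with the axon by surface proteins such as MAG. Transcription of these genes starts when a precursor leaves the cell cycle, under the DNA-binding factors SOX10, OLIG2 and MYRF.

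The stretches upstream of the start sites of 5 of the genes are shown as examples that hold, or lack, the short motifs of these factors. They were picked with the values below known, where none of the 9 genes was called different between genotypes by edgeR. A link between motifs and genotype was not tested. The windows are those of RefSeq on GRCm38.p6. Entries were at hand for 8 of the 9 genes, all but Mbp, and each stretch is cut where an annotated exon begins. Capitals mark a SOX motif (ACAAAG) or a MYRF motif (CTGGCAC or CTGGTAC), read on both strands. The stretches are chr9:120149492-120149706 on the plus strand for Mobp, chr17:37023399-37023648 on the minus strand for Mog, chr7:30914923-30915172 on the minus strand for Mag, chr11:100574689-100574903 on the plus strand for Cnp and chr2:58052865-58053114 on the minus strand for Ermn.
Mobp: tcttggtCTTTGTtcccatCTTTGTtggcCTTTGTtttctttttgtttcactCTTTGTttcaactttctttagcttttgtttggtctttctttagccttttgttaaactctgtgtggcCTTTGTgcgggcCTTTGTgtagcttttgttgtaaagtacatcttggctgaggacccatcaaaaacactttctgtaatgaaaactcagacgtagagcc
Mog: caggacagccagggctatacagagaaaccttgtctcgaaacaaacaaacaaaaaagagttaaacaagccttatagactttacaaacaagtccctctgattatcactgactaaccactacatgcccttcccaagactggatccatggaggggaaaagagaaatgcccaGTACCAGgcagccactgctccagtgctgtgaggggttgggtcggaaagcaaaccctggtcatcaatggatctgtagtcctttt
Mag: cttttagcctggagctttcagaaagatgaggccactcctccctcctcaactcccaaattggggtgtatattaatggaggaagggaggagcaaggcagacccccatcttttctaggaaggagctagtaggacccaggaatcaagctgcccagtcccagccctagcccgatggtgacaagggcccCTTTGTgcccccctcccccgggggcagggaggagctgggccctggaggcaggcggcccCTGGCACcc
Cnp: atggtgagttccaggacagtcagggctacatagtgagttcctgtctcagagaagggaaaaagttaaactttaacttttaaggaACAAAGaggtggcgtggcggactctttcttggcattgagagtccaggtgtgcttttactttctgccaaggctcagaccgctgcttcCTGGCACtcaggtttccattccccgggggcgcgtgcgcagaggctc
Ermn: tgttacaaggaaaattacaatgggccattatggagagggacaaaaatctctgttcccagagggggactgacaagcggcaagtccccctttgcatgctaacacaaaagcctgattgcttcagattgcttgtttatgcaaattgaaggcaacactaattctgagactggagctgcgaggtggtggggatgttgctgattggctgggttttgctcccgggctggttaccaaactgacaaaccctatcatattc

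The Mobp stretch of 215 bases held 6 SOX motifs, all read as CTTTGT on the strand of the gene, and 1 of the 32851 promoter windows of 300 bases held as many, which was that of Mobp itself. Mobp was picked for this count because it held the most SOX motifs of the 8 genes, so the count is a description. A SOX motif was present in 4 of the 8 genes (Mag, Mobp, Cnp and Opalin) and in 18.7% of all windows, and a MYRF motif in 4 of the 8 (Mog, Mag, Cnp and Opalin) and in 7.1% of windows. Mag had 3 windows, which gave it more room for a match. The E-box CAGCTG, which OLIG2 binds, was found in Opalin alone, in 16.3% of all windows, and the letters AGGTCA, to which retinoic acid receptors bind, in none of the 8, in 16.3% of windows. A set of 8 genes is too small to tell none from such a share. Mbp, the only member in the study's list of retinoic acid-targeted genes, had no window and was not searched. The SOX and MYRF letters share no position in these stretches. A match is a run of letters and was not tested as a binding site, and Ermn, Cldn11 and Mal had no match to any of these motifs.

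The 9 genes spanned a wide range of levels. As CPM (counts scaled to the total gene counts of the library) divided by the kilobases of annotated exon, that is RPKM, and over all 6 mice, Mbp was the highest at 386 ± 26.8 (SD, n = 6), followed by Mobp at 179 ± 20.1. Mal (123 ± 9.97), Cldn11 (119.9 ± 9.09) and Cnp (118 ± 7.52) came next, and their ranges over the 6 mice overlapped. Mag (55.8 ± 4.52) and Mog (52.2 ± 5.18) also overlapped, whereas Ermn (19.2 ± 3.85) and Opalin (12.7 ± 2.02) were lowest and their ranges did not overlap Mog's. The highest Opalin value, 15.7, lay above the lowest Ermn value, 15.3. Measured per kilobase of the longest transcript instead, Cnp moved from rank 5 to rank 3 and the other 8 kept their order. Behind these levels stood 2031 (Opalin) to 180526 (Mbp) counts over the 6 libraries.

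**Figure D1:**
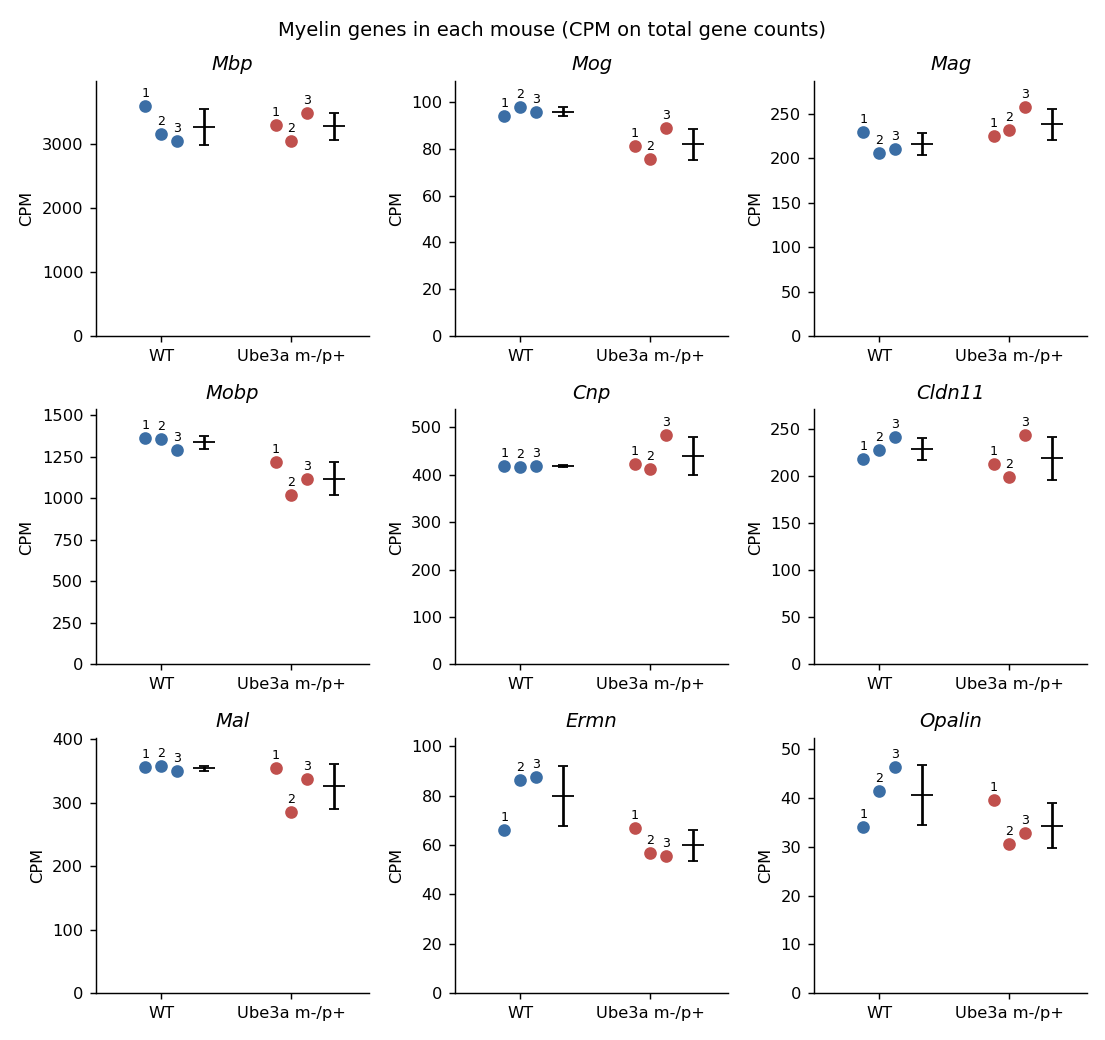
CPM on total gene counts (vertical axes from 0) of the 9 myelin genes in each of the 3 WT (blue) and 3 Ube3a m-/p+ (red) mice, with the mouse number above each point and the mean ± SD in black. The points of the genotypes are separate for Mog and Mobp and overlap for the other 7 genes.

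Before the myelin genes, Ube3a was read as the check of the genotype. Ube3a had 103.5, 141 and 151 CPM in WT mice 1, 2 and 3, and 96.8, 82.9 and 80.6 CPM in Ube3a m-/p+ mice 1, 2 and 3 (the order kept for all genes that follow). As counted, every mutant value was below every WT value, and the log2 fold change was -0.58 (SE 0.12, adjusted p = 0.0363 by edgeR's quasi-likelihood test). WT mouse 1 was the closest to the mutants. Exons of Ube3a overlap those of Snhg14 on the opposite strand by 1803 bases, and the strand setting of the counting is not given in the sources used here.

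None of the 9 myelin genes was called different between genotypes, that is, none had an adjusted p below 0.05 with a fold change above 1.2 by edgeR. Among all genes tested, 290 were called (2.01%), 147 higher and 143 lower in Ube3a m-/p+ mice. Without adjustment, 3 of the 9 (Ermn, Mobp and Mog, all lower) had a p below 0.05, beside 24.6% of all genes. DESeq2 called 1 of the 9, Ermn, beside 9.7% of the genes for which it gave an adjusted p. In 6 of the 9 the mean was lower in Ube3a m-/p+ mice and in 3 it was higher, while 49.7% of all genes were lower. The log2 fold changes ran from -0.40 (Ermn) to 0.16 (Mag), with a median of -0.10 beside 0.0025 for all genes tested. In whole tissue, fewer oligodendrocytes and less RNA per oligodendrocyte cannot be told apart.

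Mobp and Mbp encode the basic proteins that lie on the inner face of the membrane. Mobp (chr9:120149707-120181484, GRCm38) had 1365, 1354 and 1290 CPM in WT mice and 1220, 1018 and 1118 CPM in Ube3a m-/p+ mice. All 3 mutant mice were below all 3 WT mice. The mean was 1336 ± 40.2 CPM in WT and 1119 ± 101 CPM in mutant mice (SD, n = 3 each), a log2 fold change of -0.24 with a 95% confidence interval of -0.42 to -0.05 and an adjusted p of 0.112 by edgeR. Exons of Mobp share 79 bases with those of Gm38642 on the same strand.

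Mbp, which compacts the sheets, showed no such separation. Its values were 3591, 3160 and 3046 CPM in WT mice and 3299, 3053 and 3480 CPM in Ube3a m-/p+ mice (chr18:82475146-82585637). The mutant values lay inside the WT range. The means were 3265 ± 288 and 3277 ± 214 CPM (SD, n = 3 each), and the interval of the log2 difference was -0.17 to 0.21 (adjusted p = 0.900 by edgeR), which lies within a fold change of 1.2 in either direction.

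Mog and Mag encode immunoglobulin-domain proteins of the oligodendrocyte surface, MOG on the outermost sheet and MAG facing the axon. Mog (chr17:37010743-37023398) had 94.1, 98.0 and 95.8 CPM in WT mice and 81.4, 75.7 and 88.8 CPM in Ube3a m-/p+ mice. The 3 mutant values were the lowest. The log2 fold change of Mog was -0.21 (95% interval -0.40 to -0.02) with an adjusted p of 0.170 by edgeR. Like Mobp, it reached p = 0.1 in the exact two-sided permutation test of the 6 mice, the smallest that 3 against 3 can give, and 25.0% of all genes tested likewise had groups that did not overlap. Mag (chr7:30899176-30914873) had 230, 206.6 and 211 CPM in WT mice and 225, 232 and 258 CPM in Ube3a m-/p+ mice. Here mutant mice 2 and 3 were the highest and WT mouse 1 lay among the mutants. The log2 fold change of Mag was 0.16 (95% interval -0.02 to 0.35, adjusted p = 0.256 by edgeR).

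Cnp, whose product is an enzyme that keeps channels of cytoplasm open between the membranes, had 419, 417 and 419 CPM in WT mice and 422, 412 and 484.5 CPM in Ube3a m-/p+ mice (chr11:100574904-100591729). WT mice were nearly equal, mutant mice 1 and 3 lay above them, mouse 3 by far the more, and mutant mouse 2 lay below. The interval of the log2 fold change was -0.09 to 0.27 (adjusted p = 0.551 by edgeR). Exons of Cnp overlap those of Dnajc7 on the opposite strand by 154 bases.

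Cldn11 forms the tight junctions between turns of myelin, and Mal encodes a lipid-raft protein of compact myelin. Cldn11 (chr3:31149920-31164324) had 219, 228 and 241 CPM in WT mice and 213, 199.9 and 244 CPM in Ube3a m-/p+ mice. Mal (chr2:127633226-127656695) had 356, 358 and 350.5 CPM in WT mice and 355, 286 and 337 CPM in Ube3a m-/p+ mice. In both genes mutant mouse 2 was the lowest of the 6 and the groups overlapped. The log2 intervals were -0.24 to 0.14 for Cldn11 (adjusted p = 0.786) and -0.29 to 0.09 for Mal (adjusted p = 0.499), both by edgeR.

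Ermn, which encodes an actin-binding protein of late oligodendrocyte maturation, had 66.0, 86.2 and 87.6 CPM in WT mice and 66.9, 56.8 and 55.7 CPM in Ube3a m-/p+ mice (chr2:58045113-58052864). The 2 mice numbered 1 had the same level within 1 CPM, and the others were far apart by genotype. The log2 fold change was -0.40 (95% interval -0.64 to -0.16, adjusted p = 0.0632 by edgeR), and DESeq2 gave an adjusted p of 0.0318. Exons of Ermn overlap those of Galnt5 on the opposite strand by 237 bases. Opalin, a membrane glycoprotein of the paranodal loops, had 34.2, 41.4 and 46.3 CPM in WT mice and 39.7, 30.7 and 32.8 CPM in Ube3a m-/p+ mice (chr19:41061710-41077113). Its groups overlapped, with mutant mouse 1 above WT mouse 1, and the log2 interval was -0.50 to 0.05 (adjusted p = 0.290 by edgeR).

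These differences ran along the base composition of the transcripts, with Mobp furthest from that order. GC content, the share of G and C bases in the longest annotated transcript, was lowest in Ermn (38.0%), then Opalin (45.8%), Mal (48.9%), Mog (50.0%), Cldn11 (50.9%), Mbp (51.0%), Mobp (53.3%), Cnp (54.8%) and Mag (57.6%). This order depends on the transcript taken: the 14 coding transcripts of Mbp run from 51.0% to 59.0%, with a mean of 55.7%. The longest transcripts of Cnp and Opalin are not annotated as protein-coding. Ermn, the poorest in GC, had the lowest log2 fold change and Mag, the richest, the highest. Over the 9 genes Spearman's rho between GC content and log2 fold change was 0.733, and over 14201 genes it was 0.622, given as descriptions since genes measured in the same libraries are not independent. Among the coding sequences of 8 of the genes, Mbp not included, that of Ermn was also the poorest in GC, at 45.7%, and that of Mag the richest, at 58.4%. The order between these ends was not the same: the coding sequence of Cldn11 was at 58.1%, beside 50.9% for its longest transcript.

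**Figure D2:**
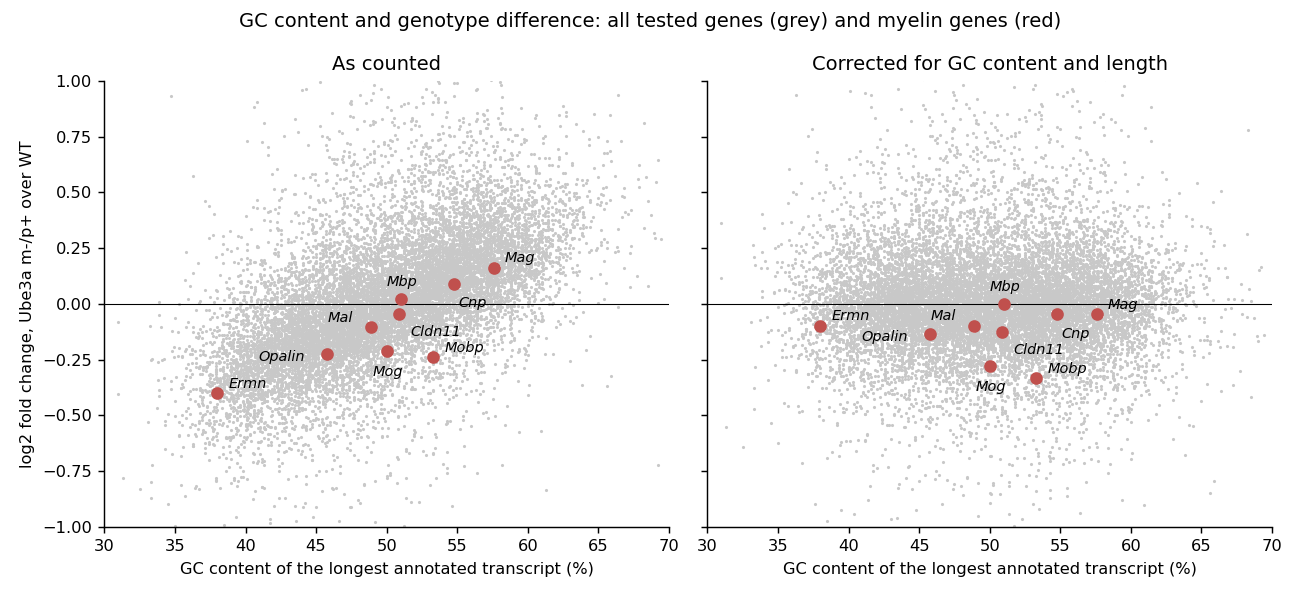
GC content of the longest transcript (horizontal axis, percent) against the log2 fold change of Ube3a m-/p+ over WT (vertical axis) for the genes tested (grey) and the 9 myelin genes (red), as counted on the left and after correction for GC content and length on the right. As counted the myelin genes lie along the slope of the grey cloud except Mobp and Mog, which lie low in it, and on the right both stay low while Ermn and Mag move toward 0. Outside the axes lie 94 genes on the left and 67 on the right.

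The libraries themselves differed in this property. The rho across genes between GC content and a library's log2 level relative to the mean of all 6 was -0.51 in WT mouse 2 and -0.57 in WT mouse 3, against 0.53 in both Ube3a m-/p+ mice 2 and 3. In the mice numbered 1 it was 0.05 (WT) and 0.06 (mutant). In mice 2 and 3 the trend and the genotype therefore cannot be told apart. Between the mice numbered 1, with 1 library each and so no test, Mobp was 1365 in WT and 1220 CPM in the mutant, Mog 94.1 and 81.4 CPM, Ermn 66.0 and 66.9 CPM, Opalin 34.2 and 39.7 CPM, and Mag 230 and 225 CPM.

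With a smooth function of GC content and of length taken out of each library, the 9 genes drew together. Their log2 fold changes then ran from -0.33 to 0.0002 in place of -0.40 to 0.16, 8 were below 0 (52.5% of all genes were), and the median was -0.10 beside -0.01 for all genes. Mobp had a corrected log2 fold change of -0.33 (SE 0.08, 95% interval -0.50 to -0.17) with an adjusted p of 0.0431 by edgeR, and was called, as were 0.648% of genes. In corrected units its values were 1364, 1414 and 1349 CPM in WT mice and 1222, 969.9 and 1083 CPM in mutant mice. Mog was at -0.28 (95% interval -0.44 to -0.11, adjusted p = 0.0834 by edgeR). Mobp and Mog were the 2 of the 9 with an unadjusted p below 0.05, beside 14.2% of all genes. Ermn moved from -0.40 to -0.10 (adjusted p = 0.632), Mag from 0.16 to -0.05 (adjusted p = 0.814) and Opalin from -0.22 to -0.13 (adjusted p = 0.610), all by edgeR. Ube3a itself, with a GC content of 36.9%, moved from -0.58 to -0.20 and was no longer called (adjusted p = 0.241 by edgeR). Its corrected groups overlapped, with 101.6 CPM in WT mouse 1 and 107 CPM in mutant mouse 3.

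**Figure D3:**
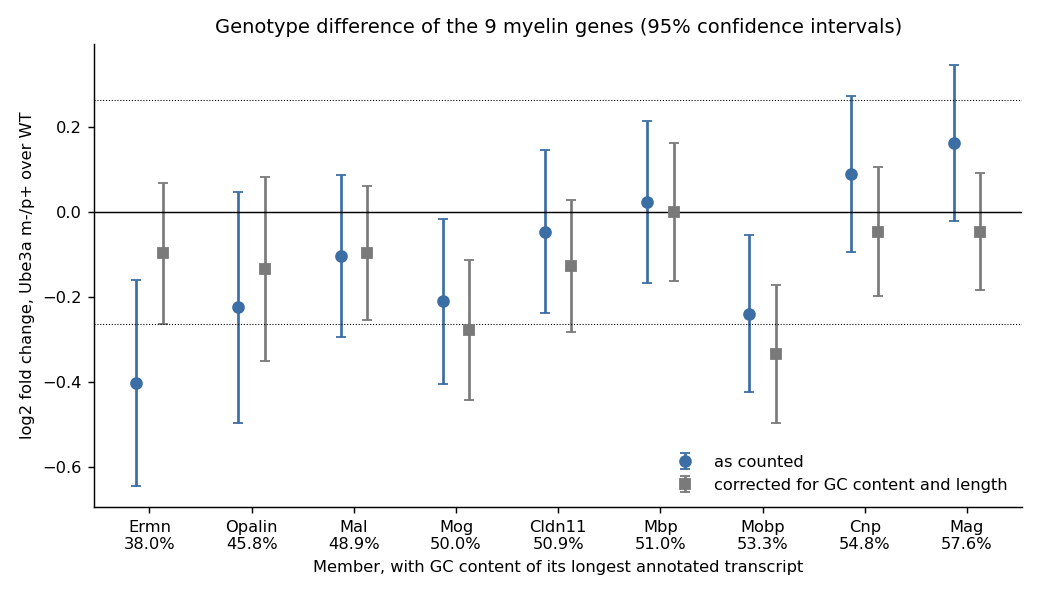
log2 fold change of Ube3a m-/p+ over WT (vertical axis) of the 9 myelin genes in order of GC content, as counted (blue circles) and after correction for GC content and length (grey squares), with 95% confidence intervals and dotted lines at a fold change of 1.2. The blue points lie between -0.40 (Ermn, at the left) and 0.16 (Mag, at the right), with Mog at -0.21 and Mobp at -0.24 below their neighbours, and the grey points lie between -0.33 (Mobp) and 0.0002 (Mbp).

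Ratios within a library do not depend on its depth or scaling, although they do carry its GC trend. Per 100 Mbp counts there were 38.0, 42.8 and 42.4 Mobp counts in WT mice and 37.0, 33.3 and 32.1 in Ube3a m-/p+ mice. For Mog the ratios were 2.62, 3.10 and 3.15 in WT mice and 2.47, 2.48 and 2.55 in Ube3a m-/p+ mice. For both genes all mutant ratios lay below all WT ratios, by a narrow margin between the mice numbered 1, and the other 6 ratios to Mbp overlapped. Such separation was common: of the 36 pairs of members, 11 had ratios that did not overlap between genotypes, 2 of them with Mbp. By CPM, 25.0% of all genes tested did not overlap. There were 593, 655 and 612 Mobp counts per 100 Mag counts in WT mice and 543, 438 and 433 in Ube3a m-/p+ mice.

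**Figure D4:**
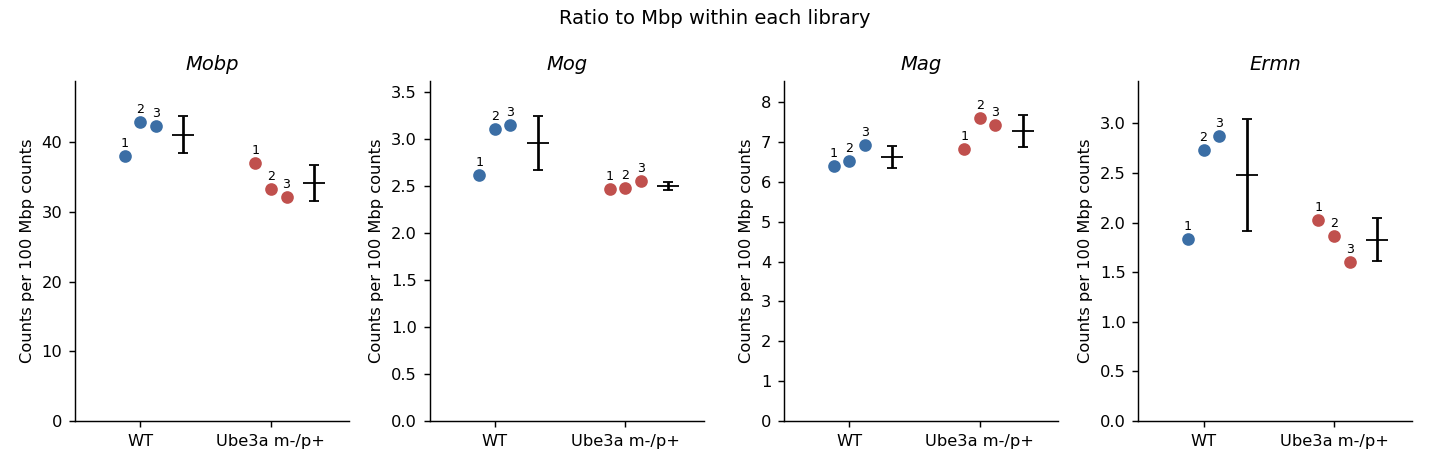
Counts of Mobp, Mog, Mag and Ermn per 100 counts of Mbp in the same library (vertical axes from 0) for 3 WT (blue) and 3 Ube3a m-/p+ (red) mice, with mouse numbers and the mean ± SD in black. Mobp and Mog are lower in every mutant mouse than in every WT mouse, and the genotypes overlap for Mag and Ermn.

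Summed over the 9 genes, the level was 6373, 5948 and 5788 CPM in WT mice and 5923, 5364 and 6099 CPM in Ube3a m-/p+ mice. These sums overlapped, and Mbp made up most of each. Without Mbp the other 8 summed to 2782, 2789 and 2742 CPM in WT mice and to 2624, 2311 and 2620 CPM in Ube3a m-/p+ mice. Every mutant sum was then below every WT sum, with means of 2771 ± 25.1 and 2518 ± 179 CPM (SD, n = 3 each). Mobp carried most of that gap: without Mbp and Mobp the other 7 summed to 1418, 1435 and 1452 CPM in WT mice and to 1403, 1293 and 1502 CPM in the mutants, which overlapped.

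Calls among the 9 genes depended on single mice, as did calls over all genes. Without WT mouse 1, Ermn was called (log2 fold change -0.52, adjusted p = 0.00358 by edgeR), and without Ube3a m-/p+ mouse 1 both Ermn (-0.48, adjusted p = 0.0186) and Mobp (-0.29, adjusted p = 0.0478) were. Over all genes, 2582 were called without WT mouse 1 and 1816 without Ube3a m-/p+ mouse 1. With both of these mice left out, an alternative chosen after seeing the data, Ermn (-0.61), Mobp (-0.29) and Opalin (-0.45) were called, as were 4138 genes in all. Those fits keep the libraries in which GC content and genotype run together. Without any 1 of the other 4 mice none of the 9 was called, beside 0 to 2 genes in all. The direction of Ermn, Mobp, Mog, Opalin and Mal was lower in Ube3a m-/p+ mice under all 17 alternatives, whereas Mbp, Mag, Cnp and Cldn11 changed sign under at least 1. At their weakest, Mal was at -0.0071 and Ermn at -0.0204, beside -0.13 for Opalin, -0.14 for Mog and -0.16 for Mobp. As counted, Ermn and Opalin were not lower in the mutant between the mice numbered 1.

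Genes with neighbouring roles, 46 in 5 lists chosen with earlier results of these data known, gave 6 calls, beside the 2.01% of all genes. Of 19 other genes of mature oligodendrocytes 3 were called. Tspan2, a tetraspanin, fell by 0.44 and Omg, a surface glycoprotein of oligodendrocytes and neurons, fell by 0.58 on the log2 scale, while Ppp1r14a, a phosphatase inhibitor, rose by 0.62 (adjusted p = 0.0393, 0.0393 and 0.0482 by edgeR). None of 5 myelin lipid enzymes was called, 2 having an unadjusted p below 0.05. The most abundant of them were Cers2 (-0.14, adjusted p = 0.420) and Ugt8a (-0.40, adjusted p = 0.0840), which make ceramides and galactosylceramide.

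Among 7 transcription factors of the lineage 1 was called, Nkx6-2, which rose by 0.71 on the log2 scale (adjusted p = 0.0362 by edgeR). WT mice had 16.6, 16.1 and 12.9 CPM of it against 20.9, 27.4 and 25.8 CPM in the mutants. The transcript is rich in GC at 64.3%. After the correction it was at 0.35 (adjusted p = 0.179). None of 5 adhesion genes of the paranode and juxtaparanode was called, the most abundant being Nfasc (0.05, adjusted p = 0.748) and Cntn1 (-0.23, adjusted p = 0.156). Of 10 genes of precursors and newly forming oligodendrocytes 2 were called, both lower: Pdgfra, the growth-factor receptor of precursors, fell by 0.43 and Vcan, a matrix proteoglycan, fell by 0.60 on the log2 scale (adjusted p = 0.0466 and 0.0387 by edgeR). After the correction Pdgfra (-0.36, adjusted p = 0.0461) and Omg (-0.40, adjusted p = 0.0315) were called and the other 4 genes named here as called were not.

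**Figure D5:**
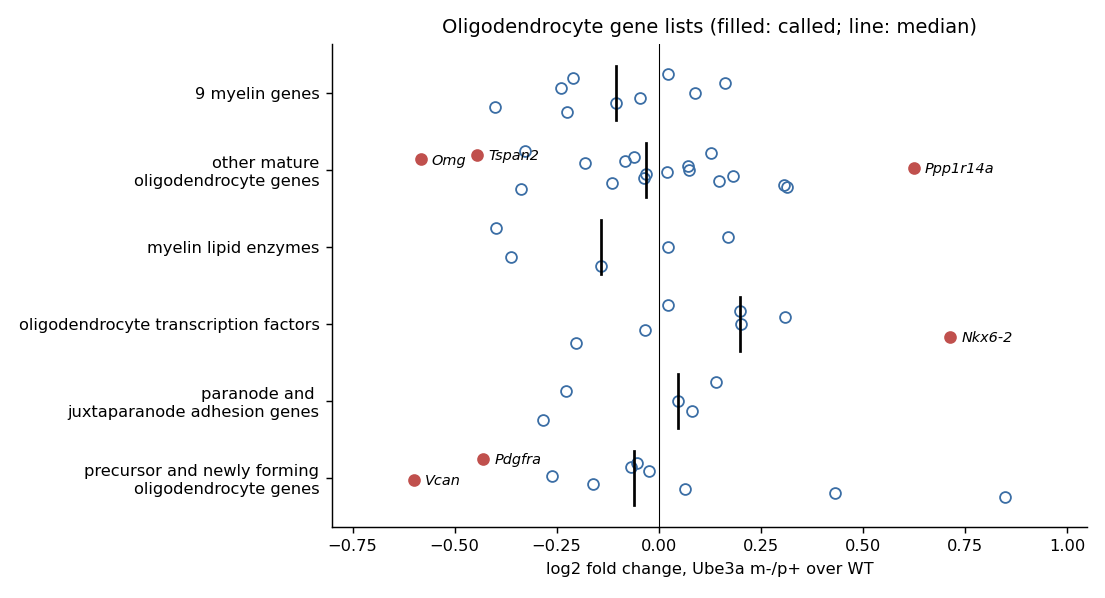
log2 fold change of Ube3a m-/p+ over WT (horizontal axis) of each tested gene in 6 oligodendrocyte lists (rows), with called genes filled and named and the median of each list as a black line. The medians lie between -0.14 and 0.20, and 6 genes outside the 9 myelin genes are filled.

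Markers of other cells were read beside these results. Schwann cells, which make myelin outside the brain and share Mbp and Mag, gave 3.14 to 5.39 summed CPM over the 6 libraries for 4 genes. None of the 7 neuron, 8 astrocyte, 8 microglia and 6 endothelial genes was called, and their medians lay between -0.16 and -0.03. The summed microglia level was 408 to 445 CPM in WT mice and 377 to 396 CPM in Ube3a m-/p+ mice, and the astrocyte sum was 5224 to 5635 and 4669 to 4900 CPM. In each of these 2 lists 4 genes were lower and 4 higher in the mutants. Slc1a2, at a mean of 2946 CPM, weighed most in the astrocyte sum. Its log2 fold change moved from -0.32 to -0.16 after the correction for GC content and length (adjusted p = 0.335 by edgeR). Neuron genes summed to 5605 to 5713 CPM in WT and 5376 to 5697 CPM in mutant mice, and endothelial genes to 204 to 220 and 195 to 215 CPM. All 8 genes of meninges and fibroblasts had a fitted log2 fold change above 0, the group means of Lum being 4.42 CPM in WT and 4.37 CPM in mutant mice, and 1 was called (101 to 177 CPM summed in WT, 111 to 212 CPM in mutant mice). Choroid plexus genes varied within both genotypes, from 99.4 to 2170 CPM in WT and from 105 to 2260 CPM in mutant mice, and none of the 5 was called. Genes of thalamus and striatum, which border the hippocampus in dissection, summed to 56.1 to 78.9 CPM in WT and 80.7 to 85.7 CPM in mutant mice, with none of the 6 tested called. All these sums carry the GC trend of the libraries, and by CPM 25.0% of all single genes tested did not overlap between genotypes. The part of these cells in the myelin values was not tested.

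As counted, the 9 genes did not vary as a unit across mice. Mal and Mog followed the mean of the other 8 most closely, with Pearson's r of 0.89 for each over the 6 mice, then Mobp at 0.81 and Cldn11 at 0.69. Mbp (0.05) and Cnp (-0.03) bore little relation to the others, and Mag ran against them (-0.56). These r values come from uncorrected CPM, which carries the GC trend of the libraries. After the correction for GC content and length, Mbp (2986 CPM), Mag (210 CPM) and Cnp (385.9 CPM) were lowest in Ube3a m-/p+ mouse 2. So were the other members except Ermn, and r was not computed on corrected values. The mean of the 9 was lowest in Ube3a m-/p+ mouse 2, by 0.17 on the log2 scale below the average mouse, and highest in WT mice 2 and 3. Outside the list, the genes whose log2 CPM followed this mean most closely were Rimklb, Raver2, Plk2, Hapln4 and Tfb2m, with r from 0.98 to 0.99 among 10413 genes ranked over 6 mice, a likeness given as a description with no p.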

How the data were processed

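RNA of the hippocampus was sequenced from 3 WT and 3 Ube3a m-/p+ male mice, 1 library each, prepared by Illumina protocols. The authors deposited raw counts for each gene symbol, neither normalized nor pooled. The submitters' processing notes name STAR 2.7.4a, HTSeq and mm10, and the annotation and strand setting are not given in the sources used here. Counts on genes ranged from 7293272 to 11314409 per library, 39.0% to 41.8% of the reads listed, and lines that name no gene were left out. Reads that matched no annotated gene were the larger part, from 54.07% (Ube3a m-/p+ mouse 3) to 55.05% (WT mouse 2) of those listed. The labels do not pair the mice, and p-values measure the spread between these 6 mice.

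CPM was taken on total gene counts. Genes passing filterByExpr (14445) were scaled by TMM and tested for genotype by edgeR 4.0.16 in R 4.3.3 (quasi-likelihood, robust, two-sided), with Benjamini-Hochberg adjustment over all of them. Calls needed a fold change over 1.2 with adjusted p under 0.05. Alternatives were DESeq2 1.42.0, other scalings and filters, a replicate block, each mouse left out, and offsets per library from splines (5 degrees of freedom each) of transcript GC content and length (GENCODE M21 on GRCm38, the longest per gene), known for 98.3% of tested genes. Two-sided exact permutation tests used log2 CPM. Scripts were tested on simulated counts. All 9 members, Ube3a, the called genes or otherwise the 2 most abundant of each oligodendrocyte list, and the 5 genes most like the members were named. Members and lists were chosen with earlier results of these data known.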

Additional observations from a re-analysis of the deposited data

How the results depend on the processing

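Of 153 values (the log2 fold changes of 9 genes under 17 alternatives) 142 kept their direction. The alternatives reuse the same mice, and other scalings moved the values little (Mobp from -0.2563 to -0.2268), so this count is a description. Under the correction for GC content and length, Mag turned to -0.0468 and Cnp to -0.0462. With GC content and length averaged over coding transcripts, an alternative chosen after seeing the data, Mbp was -0.113, Mag -0.0094 and Cnp -0.036. Ermn kept its direction there but was only at -0.0204. With 1 mouse left out, Mbp lay between -0.0297 and 0.0992, below 0 without WT mouse 3 or mutant mouse 3, and Cldn11 between -0.1384 and 0.0272, above 0 without mutant mouse 2.

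The count of genes called, 290 as reported, was 967 by DESeq2, 1176 with no filter on low counts, 2832 with an unadjusted p and a fold change above 1.2, 92 after the correction, 167 with coding transcripts averaged and 4138 without both mice numbered 1. Leaving out 1 mouse gave 0 to 2582 (0 without WT mouse 2, WT mouse 3 or mutant mouse 2, 2 without mutant mouse 3, 1816 without mutant mouse 1 and 2582 without WT mouse 1). Among the 9 myelin genes, 0 as reported, 1 was called by DESeq2, with no filter and by the unadjusted p (Ermn each time), 1 under either correction (Mobp), 3 without both mice numbered 1, and 0 to 2 with 1 mouse left out. Of the genes in the other lists, 6 as reported, 11 were called with no filter, 13 by the unadjusted p, 2 under either correction, 19 without both mice numbered 1 and 0 to 14 with 1 mouse left out. The median of the 9 genes lay between -0.16 and -0.0071 with 1 mouse left out, the latter without Ube3a m-/p+ mouse 2. The cause of these shifts was not tested.

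The labels do not state a pairing of same-numbered mice, whose deviations from their group means correlated at -0.29, -0.18 and -0.31. Those deviations carry the GC trend of the libraries. By chi-square per degree of freedom between the counts of 2 libraries, the mice numbered 1 were the closest pair of all (3.78). Mice 2 and mice 3 were at 15.5 and 21. Whether same-numbered mice were handled together was not tested. With a replicate block edgeR called 0 genes in all, 0 of the 9 and 0 of the other lists, 2422 genes and 2 of the 9 having an unadjusted p below 0.05. With the block and the correction together 13 genes were called, 0 of the 9 and 0 of the other lists, and Mbp was -0.0008, Mag -0.0484 and Cnp -0.0494. With 3 mice per genotype the standard errors of the 9 genes were 0.09 to 0.13 on the log2 scale, beside 0.263 for a fold change of 1.2.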
